A study of Rattus norvegicus with 9 samples.

Results

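miR-221 and miR-222 are a pair of microRNAs made from neighbouring hairpins on the rat X chromosome. Small RNA libraries of rat cornea measured them, 3 made from normal cornea, 3 from isograft and 3 from allograft, all labelled Wistar and 6 weeks old. An isograft is by its name a graft from a genetically matched donor and an allograft one from a donor that differs; the labels state neither the donor strain nor the time after surgery nor the condition of the grafts. The members are the rows of the deposited table named rno-miR-221-3p, rno-miR-221-5p and rno-miR-222-3p, 3 of its 765 mature miRNAs, and all 3 were abundant enough to test. The table also holds miR-222-5p, the fourth arm of the cluster, which was too low to test and is given only as values. Each library goes by its group and its title number (12, 34 or 56), which the labels do not explain. Whether a library holds 1 cornea or a pool of corneas or animals, and whether a group's libraries come from different animals, is not stated. Below, a cornea or graft named by its number means that library, n counts libraries, and p-values cover only the spread between these libraries, which may be technical.

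Both hairpins are cut from one primary transcript, and each mature miRNA guides silencing complexes to messenger RNAs that pair with its seed, bases 2 to 8. The 3p arms are the guides of this family and the 5p arms the passenger strands, which are usually degraded. miR-221-3p and miR-222-3p are best known for repressing Cdkn1b, an inhibitor of the cell cycle, and Kit, the receptor of stem cell factor. In vessels they are known to favour growth of smooth muscle cells and to restrain endothelial cells. A healthy cornea has no vessels in its centre, and vessels and leukocytes can enter after grafting.

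The mature sequences are shown because the 2 guide arms share a seed and so can pair with the same targets, while the passenger arm does not. They are RefSeq's for the rat assembly GRCr8, 5′ to 3′, with the seed in capitals.
miR-221-3p: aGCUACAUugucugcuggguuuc
miR-222-3p: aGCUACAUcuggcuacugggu
miR-221-5p: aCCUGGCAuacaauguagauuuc
From the 5′ end, the guide arms were identical over the first 8 bases and at 11 of the 21 positions compared without gaps. The first differences, with the base of miR-221-3p first, were U9C, G10U and U11G. A seed match to either guide arm reads AUGUAGC in a target RNA. Among the 690 miRNAs of the table that had a RefSeq sequence, no other miRNA shared the seed of the guide arms, and none shared that of miR-221-5p. Beyond base 8 they differed at 10 positions, and how the authors assigned reads that match several miRNAs is not given.

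The hairpins are shown to place the arms, with the mature parts in capitals.
Mir222 hairpin: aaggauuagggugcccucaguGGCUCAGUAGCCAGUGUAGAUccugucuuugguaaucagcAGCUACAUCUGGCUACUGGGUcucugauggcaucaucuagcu
Mir221 hairpin: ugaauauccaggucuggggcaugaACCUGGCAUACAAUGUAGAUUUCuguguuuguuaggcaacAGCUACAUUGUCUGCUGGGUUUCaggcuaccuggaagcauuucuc
In GRCr8, which is not the build rn6 named for the files, Mir222 lies at chrX:6022621-6022723 and Mir221 at chrX:6023182-6023290, both on the plus strand, with 458 bases between them. The stretch from Mir222 to Mir221 overlaps the RefSeq genes LOC120099382 and LOC120099384.

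The values are RPM, read counts brought to one library size, and the totals behind them lay between 11001459 and 12153889 reads. The listed miRNAs held from 26.4% to 65.6% of that total. A count of 3 reads, the limit that a count of 0 allows, corresponds to between 0.247 and 0.273 RPM. In each group some libraries stood apart in markers of vessels or blood. In isograft 12, summed miR-126a, the endothelial miRNA, was at 2095 RPM against 6150 and 5684 in the other isografts, and summed red blood cell miRNAs were at 181 against 14.0 and 29.1. In normal 12, miR-126a was at 857 RPM against 350 and 346 in the other normal corneas, while in normal 34 the red blood cell miRNAs were at 82.4 RPM against 313 and 343. In allograft 34, red blood cell miRNAs were at 1068 RPM against 18.5 and 19.7 in the other allografts. List counts were repeated without isograft 12, without normal 12 and without isograft 12 and allograft 34, and those that moved by over 1.5 times are given beside the counts below.

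miR-221-3p, the abundant guide of the pair, did not differ between the groups beyond the spread of the libraries in the RPM values. It was at 506, 718 and 679 RPM in normal 12, 34 and 56. In the isografts of the same numbers it was at 406, 1086 and 734 RPM. In the allografts it was at 333, 352 and 646 RPM. The isografts spanned the range of all normal corneas, and allograft 56 lay among the normal corneas while the other allografts lay below them. It ranked between 49 and 63 among the 765 miRNAs in every library.

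Means of miR-221-3p over 3 libraries (± SD) were 634 RPM ± 113 for normal corneas, 742 ± 340 for isografts and 444 ± 176 for allografts. In a linear model of log2(RPM + 1) over all 9 libraries (limma, adjusted over the 281 miRNAs tested), its log2 fold change was 0.13 in isografts against normal corneas (SE 0.39, 95% interval -0.66 to 0.92, adjusted p = 0.871). Allografts differed from normal corneas by -0.57 (SE 0.39, -1.36 to 0.22, adjusted p = 0.242) and from isografts by -0.70 (SE 0.39, -1.49 to 0.09, adjusted p = 0.160). The libraries of a group spread by 0.54 (SD of log2 values) for this miRNA, where the median miRNA tested spread by 0.45.

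miR-222-3p, the second guide with the same seed, was lower in level and higher on average in both kinds of graft, short of the threshold. It was at 45.0, 75.5 and 55.96 RPM in normal 12, 34 and 56. The isografts 12, 34 and 56 held 70.7, 168 and 99.3 RPM. The allografts held 72.6, 74.1 and 128 RPM. Normal 34 was the only normal cornea to reach the range of the grafts: it lay above isograft 12, allograft 12 and allograft 34.

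Means of miR-222-3p were 58.8 RPM ± 15.4, 113 ± 50.1 and 91.7 ± 31.8 in normal corneas, isografts and allografts (SD, n = 3 each). Its log2 fold change against normal corneas was 0.87 in isografts (SE 0.40, 95% interval 0.04 to 1.70, limma adjusted p = 0.154, unadjusted p = 0.041) and 0.61 in allografts (SE 0.40, -0.22 to 1.44, limma adjusted p = 0.227). Allografts differed from isografts by -0.26 (SE 0.40, -1.08 to 0.57, limma adjusted p = 0.651).

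miR-221-5p, the passenger strand of miR-221, spread by 0.25 within groups on the same scale. It was at 43.4, 53.4 and 51.8 RPM in normal 12, 34 and 56. The isografts held 69.9, 103 and 72.3 RPM, so every isograft lay above every normal cornea. The allografts held 73.1, 53.2 and 72.7 RPM, and allograft 34 was level with the highest normal cornea.

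Means of miR-221-5p were 49.5 RPM ± 5.37, 81.8 ± 18.6 and 66.3 ± 11.4 in the order above (SD, n = 3 each). The separation of isografts from normal corneas is one that 33.5% of the tested miRNAs showed in either direction and 22.4% in the same direction. The log2 fold change was 0.70 in isografts (SE 0.38, 95% interval -0.07 to 1.46, limma adjusted p = 0.226), 0.40 in allografts (SE 0.38, -0.36 to 1.17, limma adjusted p = 0.391) and -0.29 between allografts and isografts (SE 0.38, -1.06 to 0.48, limma adjusted p = 0.565). miR-222-5p, the other passenger strand, gave 2, 7 and 6 reads in normal corneas, 8, 25 and 17 in isografts and 25, 15 and 26 in allografts. Those counts correspond to at most 2.36 RPM.

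**Figure D1:**
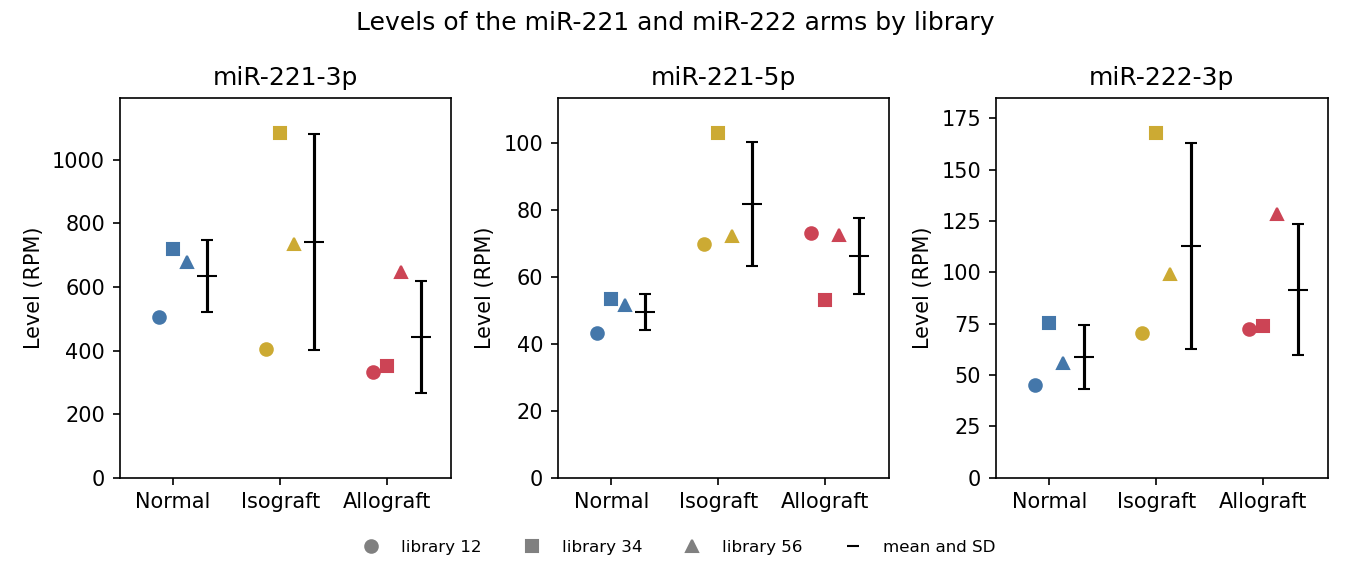
Levels in RPM of miR-221-3p, miR-221-5p and miR-222-3p (panels, each with its own axis from 0) in normal, isograft and allograft corneas; symbols are libraries and the black marks the mean ± SD of 3 libraries. miR-221-3p ran from 333 to 1086 RPM with overlap between all groups, while the 3 isografts of miR-221-5p, from 69.9 RPM, lay above the 3 normal corneas.

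By this model 0 of the 3 members passed in any comparison, and 1 had an unadjusted p under 0.05 (miR-222-3p in isografts). Of all 281 miRNAs tested, 21.4% passed in isografts against normal corneas, 47.3% in allografts against normal corneas and 34.5% in allografts against isografts. Among all tested fold changes ranked from lowest to highest, miR-222-3p stood at the percentile 81.7 in isografts and 72.1 in allografts against normal corneas, miR-221-5p at 77.4 and 67.1, and miR-221-3p at 54.3 and 33.6. The comparisons with normal corneas share the same 3 libraries. In these whole corneas more cells of a type and more RNA per cell cannot be told apart.

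**Figure D2:**
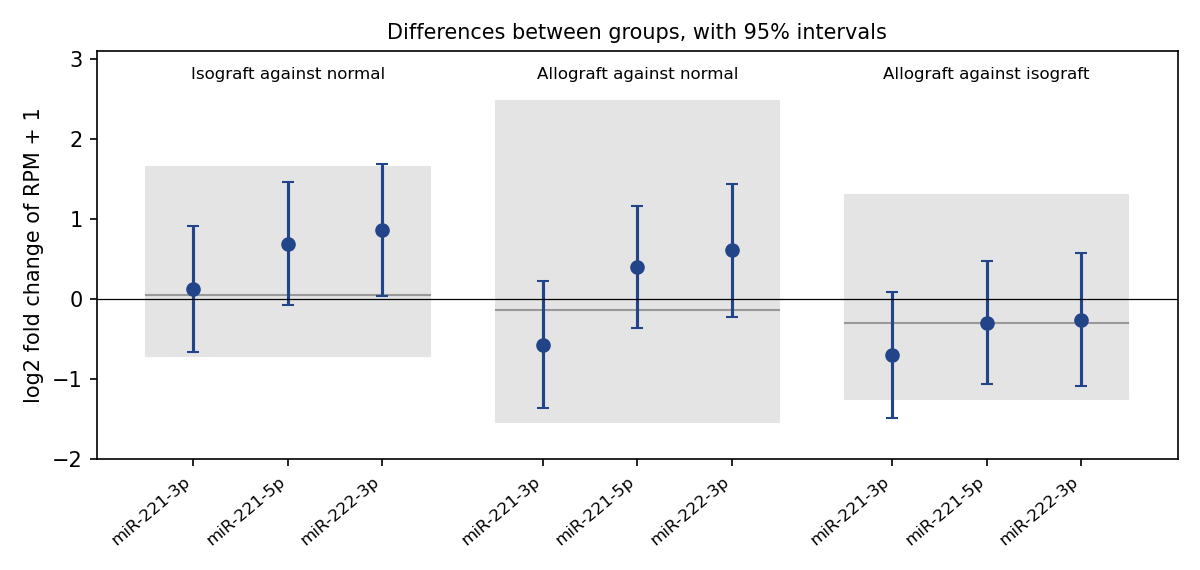
Log2 fold change of RPM + 1 for each arm in the 3 comparisons, points with 95% intervals from limma; grey bands run from the 10th to the 90th percentile of the 281 tested miRNAs and grey lines mark their median. Of the 9 intervals, the interval of miR-222-3p in isografts against normal corneas, from 0.04 to 1.70, is the one that leaves out 0 before adjustment.

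The calls depended on how the libraries were scaled. In edgeR's quasi-likelihood test on whole reads recovered from the RPM values, 2 of the 3 members passed in isografts against normal corneas, where 40.6% of all miRNAs did. miR-222-3p was higher by 0.78 (edgeR adjusted p = 0.0128) and miR-221-5p by 0.64 (edgeR adjusted p = 0.0405) on the log2 scale, while miR-221-3p, at 0.05, did not (edgeR adjusted p = 0.812). Against normal corneas, all 3 members passed in allografts, where 68.7% of all miRNAs did: miR-222-3p rose by 0.74 (edgeR adjusted p = 0.0104), miR-221-5p rose by 0.57 (adjusted p = 0.0408) and miR-221-3p fell by 0.43 (adjusted p = 0.0445). In allografts against isografts miR-221-3p passed, at -0.48 (edgeR adjusted p = 0.0341), 1 of 3 members where 58.0% of all miRNAs passed. DESeq2 called the same members in the same directions, where 42.7%, 69.9% and 61.3% of all miRNAs passed. RPM rescaled by the median of ratios, in limma, called miR-222-3p in both grafts and miR-221-3p in allografts against each other group (1, 2 and 1 of 3 members, against 40.9%, 69.0% and 59.8% of all).

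The sum of the listed miRNAs had a lower mean in the grafts. Each allograft (463179 RPM or less) lay below each normal cornea (466127 RPM or more). The isografts, between 368360 and 545296 RPM, overlapped with both of these groups. Dividing by this sum moved the median of all fold changes from 0.05 to 0.35 in isografts and from -0.14 to 0.55 in allografts. It gave miR-222-3p 1.18 and 1.33 and miR-221-5p 1.01 and 1.12 against normal corneas (limma adjusted p of 0.0016 in isografts and of 0.00041 and 0.00042 in allografts), calls made for 42.7% and 65.8% of all miRNAs. Under this scaling miR-221-3p in allografts turned from -0.57 to 0.15 (adjusted p = 0.560). RPM without miR-184, the dominant corneal miRNA, moved the medians to -0.22 and -0.56; miR-221-3p then was at -1.001 in allografts (adjusted p = 0.0293, 1 of 3 members called against 55.5% of all), miR-221-5p at -0.02 and miR-222-3p at 0.18. In isografts miR-221-3p was at -0.15 under that scaling. As a share of listed miRNA reads, miR-222-3p was at 0.0101% ± 0.00122 (SD, n = 3 each) for normal corneas, 0.0235% ± 0.00642 for isografts and 0.0257% ± 0.00374 for allografts, with the highest normal cornea at 0.0115% and the lowest graft at 0.0192%.

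Without isograft 12, miR-222-3p in isografts against normal corneas was at 1.15 and passed (limma adjusted p = 0.00754, where 28.5% of all miRNAs passed), and miR-221-3p in allografts against isografts was at -1.08 and passed (limma adjusted p = 0.00524, against 52.3% of all). Without both isograft 12 and allograft 34, miR-222-3p passed in isografts at 1.15 (limma adjusted p = 0.00228, against 31.0%) and in allografts at 0.74 (adjusted p = 0.0477, against 54.4%), and miR-221-3p passed between the grafts at -0.94 (adjusted p = 0.0130, against 44.1%). Leaving out allograft 56 alone also brought miR-221-3p between the grafts past the threshold, at -1.003 (limma adjusted p = 0.0394, against 39.5% of all).

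**Figure D3:**
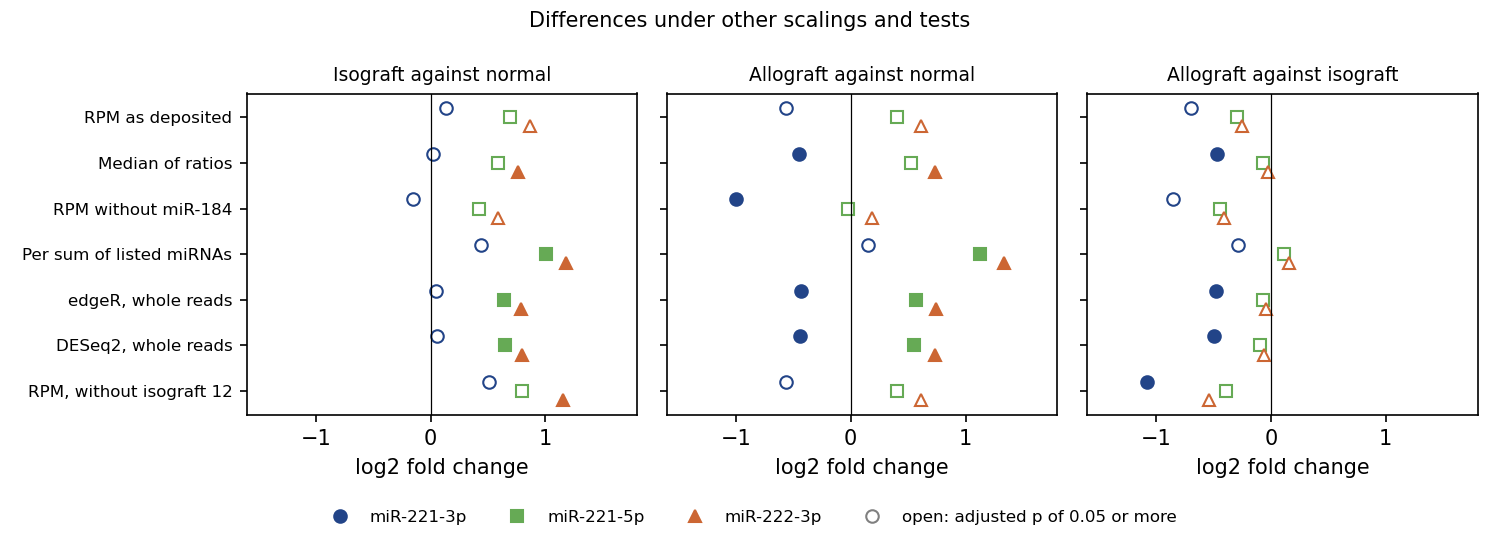
Log2 fold change of each arm (colours and symbols) in the 3 comparisons under the RPM as deposited and 6 other scalings, tests or sets of libraries (rows); filled symbols have an adjusted p under 0.05. In the panels against normal corneas miR-222-3p lies to the right of miR-221-3p under every setting drawn, while the position of both against 0 moves with the scaling. Rescaling a library moves both arms alike, so under the scalings this order follows from their ratio and is not separate support.

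The ratio of the guide arms within a library does not depend on the scaling, and it separated all 3 groups. Normal 12, 34 and 56 held 11.2, 9.51 and 12.1 reads of miR-221-3p for each read of miR-222-3p. The isografts held 5.75, 6.46 and 7.40, and the allografts 4.58, 4.75 and 5.03. Each isograft lay below each normal cornea and each allograft below each isograft, including isograft 12 and allograft 34. The means were 11.0 ± 1.33, 6.53 ± 0.827 and 4.79 ± 0.227 (SD, n = 3 each).

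On the log2 scale the ratio of miR-221-3p to miR-222-3p was lower by 0.74 in isografts than in normal corneas (a difference of -0.74), and the difference was -1.18 for allografts against normal corneas and -0.44 for allografts against isografts. Each pair of groups gave an exact two-sided permutation p = 0.1 (adjusted 0.1 over the 3 pairs), the smallest that 3 libraries against 3 allow. An exact permutation test over the 3 groups gave p = 0.00357, the smallest possible with 1680 arrangements. Leaving out any 1 library kept the differences between -0.83 and -0.64, between -1.27 and -1.10 and between -0.53 and -0.35.

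Many miRNAs changed in the grafts, so a moving ratio to miR-221-3p is common. Of the 280 other miRNAs tested, 22.1% had a ratio that was lower without overlap in isografts than in normal corneas, 49.6% in allografts than in normal corneas and 42.1% in allografts than in isografts. All these steps in order, from normal corneas to isografts to allografts, were seen for 30 of 280, or 10.7%, among them miR-222-3p. Ratios that rose, or separated the groups in another order, were not counted, though the permutation test over 3 groups takes no account of order. As a share of the reads of both guide arms, miR-222-3p took 8.43% ± 0.974 (SD, n = 3 each) for normal corneas, 13.4% ± 1.45 for isografts and 17.3% ± 0.673 for allografts. The exact 95% binomial intervals of single libraries cover counting error only. They ran from 7.05% to 10.2% in normal corneas, from 11.26% to 15.76% in isografts and from 15.8% to 19.1% in allografts. Those of isograft 12 and allograft 56 thus nearly touched.

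The arms of miR-221 itself, which come from the same hairpin, also stood in a different ratio in the grafts. Normal 12, 34 and 56 held 11.7, 13.4 and 13.1 reads of miR-221-3p for each read of miR-221-5p. The isografts held 5.82, 10.5 and 10.2, and the allografts 4.55, 6.62 and 8.89. Every graft lay below every normal cornea, and isograft 12 lay among the allografts. Means were 12.7 ± 0.942, 8.83 ± 2.62 and 6.69 ± 2.17 (SD, n = 3 each).

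Differences of this log2 ratio were -0.56 for isografts and -0.97 for allografts against normal corneas (exact two-sided permutation p = 0.1 each, adjusted 0.15 over 3 pairs) and -0.41 between the grafts (exact permutation p = 0.3, adjusted 0.3). The exact permutation test over the 3 groups gave p = 0.05. Without isograft 12 the difference of isografts from normal corneas was -0.29. The difference between the grafts was -0.68 without isograft 12, -0.64 without allograft 56, -0.26 without isograft 34 and -0.16 without allograft 12. Among the 62 pairs of 3p and 5p names with both arms tested, 21.0% had a lower 3p share without overlap in isografts than in normal corneas and 32.3% in allografts than in normal corneas, hairpins of many other miRNAs among them. For miR-222, whose 5p arm gave as few as 2 reads in a library, no such ratio was computed.

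**Figure D4:**
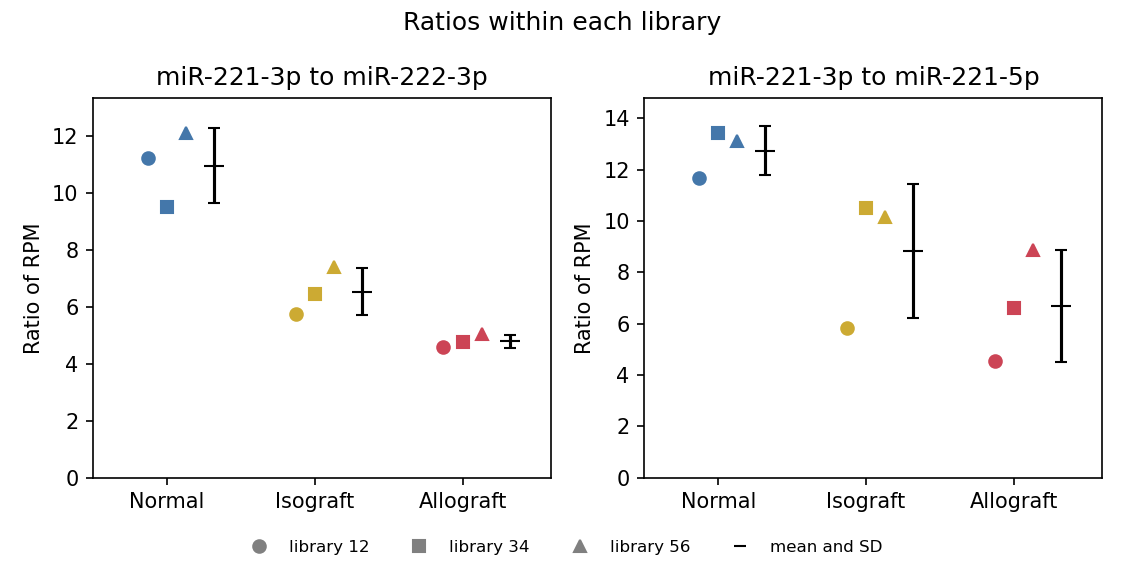
Ratio of miR-221-3p to miR-222-3p (left) and of miR-221-3p to miR-221-5p (right) within each library, by group, on axes from 0; symbols are libraries and the black marks the mean ± SD of 3. The left panel steps down from 9.51 or more in normal corneas to between 5.75 and 7.40 in isografts and 5.03 or less in allografts, and in the right panel isografts and allografts overlap.

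The miRNAs whose levels were most like those of each guide arm across the libraries were different ones. Likeness was the Pearson correlation of log2(RPM + 1) over the 9 libraries, given as a description since the libraries share their denominators and groups. miR-221-3p was most like miR-328a-3p (r = 0.9496), miR-874-3p (0.948), miR-181b-5p (0.943), let-7d-5p (0.940) and miR-27b-3p (0.938). Their adjusted p in the 3 comparisons was 0.0901 or more (limma), and miR-328a-3p was at 140 RPM ± 21.4, 170 ± 51.6 and 105 ± 27.4 in normal corneas, isografts and allografts (SD, n = 3 each). miR-222-3p was most like miR-98-5p, of the let-7 family (r = 0.941), miR-125b-1-3p (0.902), miR-3068-3p (0.902), miR-3068-5p (0.895) and miR-484 (0.888), whose adjusted p was 0.0553 or more (limma). miR-98-5p was at 109 RPM ± 12.2, 151 ± 54.5 and 146 ± 28.0.

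The members themselves were not among the miRNAs most like miR-221-3p. miR-222-3p ranked 143 of 280 in likeness to miR-221-3p (r = 0.566), and miR-221-5p ranked 188 (r = 0.379). miR-221-5p and miR-222-3p were closer to one another (r = 0.875), the place 6 in the list of miR-221-5p and 7 in that of miR-222-3p.

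Many other miRNAs known from vessel walls and vessel growth rose in the grafts. Of 22 tested in a list of 24, which leaves out miR-221 and miR-222, 11 rose in isografts against normal corneas. The 11 count both arms of miR-126a, miR-143 and miR-145 separately. These arms are also in the lists of endothelium or of stroma and smooth muscle below, and miR-155-5p is also in that of leukocytes. Counts of these lists are therefore not independent. Of all 281 miRNAs 21.4% passed in either direction, 78.3% of those higher. The list had a median log2 fold change of 0.93 where that of all miRNAs was 0.05. Among the 11, miR-126a-3p of endothelium stood at 3.16 (SE 0.41). miR-143-3p and miR-145-5p, made in smooth muscle cells and fibroblasts, stood at 3.15 (SE 0.37) and 3.18 (SE 0.41). Among those short of the threshold were miR-210-3p, induced by low oxygen, at -0.10 (SE 0.41), and miR-92a-3p, of the miR-17-92 cluster, at -0.02 (SE 0.35). In allografts against normal corneas 14 rose and 1, miR-130a-3p, fell, where 47.3% of all passed, with a median of 1.90 against -0.14 for all. In that comparison without normal 12, 13 rose and none fell, where 115 of all 281 passed. Between the grafts 7 of 22 passed, about the share of 34.5% among all miRNAs, 6 higher and miR-145-5p lower in allografts. The 6 were miR-15b-5p, miR-16-5p, miR-17-5p, miR-18a-5p, miR-21-5p and miR-155-5p, and neither arm of miR-126a passed. Without isograft 12, 2 of the 22 were higher and 6 lower, where 52.3% of all miRNAs passed and 22.4% of those were higher. Without it and allograft 34, 4 were higher and 4 lower, where 44.1% of all passed, 29.0% of those higher. Without normal 12, 4 were higher and 1 lower, where 87 of all 281 passed, 40.2% of those higher. With all libraries the list had a median near 0 that turned to 0.23 and 0.41 under scaling by the median of ratios and by the listed sum and to -0.15 without miR-184.

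Among miRNAs described to repress Cdkn1b or Kit, as the guide arms do, 1, 2 and 2 of the 7 tested (of 10 listed) passed in the 3 comparisons, where 21.4%, 47.3% and 34.5% of all miRNAs passed. The 1 that rose in isografts against normal corneas was miR-34c-5p of the p53-linked miR-34 family, at 2.22 (SE 0.41, limma adjusted p = 0.00010). In allografts miR-34c-5p rose by 2.02 (SE 0.41) and miR-494-3p, of the Dlk1-Dio3 cluster, fell by 1.14 (SE 0.40). Between the grafts 2 were lower in allografts, miR-494-3p at -1.27 (SE 0.40) and miR-152-3p at -1.02 (SE 0.35). The medians of the list were 0.13, -0.47 and -0.20 in the 3 comparisons, against 0.05, -0.14 and -0.29 for all miRNAs, and each changes sign under at least 1 of 3 other scalings.

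Markers of other cells also differed between groups. Of the sums below, only those of leukocytes and epithelium separated all 3 groups, as the ratio of the guide arms did. Most of the epithelial sum was miR-184, with 134975 of 159480 RPM in isograft 12 and 54480 of 91465 RPM in allograft 56. The rest of that sum was higher in allograft 56 than in isograft 12, so without miR-184 the grafts overlapped. The sums of miR-126a and of stroma overlapped between the grafts, and those of red blood cells overlapped in all groups. The 8 leukocyte miRNAs summed to between 59.3 and 71.7 RPM in normal corneas, 180 and 359 in isografts and 2415 and 4178 in allografts, with 7 of 8 higher in isografts and 8 of 8 in allografts against normal corneas. For these marker counts the share of all miRNAs that passed, in either direction, was 21.4% in isografts and 47.3% in allografts. The 9 epithelial miRNAs summed to between 272030 and 421730 RPM, 159480 and 194920, and 37454 and 91465 in the same order, with 4 of 9 and 8 of 9 lower. In isografts the 4 became 8 by the median of ratios, where 40.9% of all miRNAs passed. They became 6 with RPM without miR-184, where 62 of all 281 passed, and 2 without isograft 12, where 28.5% passed. miR-126a, with both arms higher in isografts and in allografts than in normal corneas, summed to between 346 and 857 RPM, 2095 and 6150, and 2955 and 4874. The 7 miRNAs of stroma and smooth muscle summed to between 8084 and 9941 RPM, 15393 and 33810, and 10320 and 20261, with 6 of 7 and 5 of 7 higher, and the 4 of red blood cells to between 82.4 and 343, 14.0 and 181, and 18.5 and 1068. No marker was at 0 in all libraries of a group. The part of these cells in the levels and ratios of miR-221 and miR-222 was not tested.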

How the data were processed

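The deposited table holds RPM computed by the authors for 765 miRNAs in 9 columns, each matched to 1 library by its title. The tools bcl2fastq and BWA and the build rn6 are named in the submitters' processing notes; versions, trimming, annotation and the treatment of reads with several matches are not stated there. RPM steps gave whole reads for 100% of values (tolerance 0.1 read). The filter, a minimum of 5 RPM in 3 or more libraries, kept 281 miRNAs. Values were tested as log2(RPM + 1) in limma 3.58.1 (R 4.3.3) with a mean-variance trend and 6 residual degrees of freedom. Adjustment was by Benjamini-Hochberg (threshold 0.05), and the pseudocount understates changes of low miRNAs. limma also draws the variance of each miRNA towards that trend. The SE of miR-221-5p was thereby larger than its own spread of 0.25 would give. edgeR 4.0.16 and DESeq2 1.42.0 were run on the whole reads as alternatives. The model was tested on simulated data. Libraries of a group differed by more than counting noise in every pair (chi-square divided by its degrees of freedom at least 154). The members and lists were chosen with earlier results of these data known. Named miRNAs were the members, the 5 most like each guide arm, sharers of a seed and list members. miR-221-5p's likeness and the tests over 3 groups were added after seeing the data. Deviations from the group mean correlated from -0.51 to 0.56 between libraries of equal title number and from -0.72 to 0.60 between those of unequal number. With 3 libraries in a group this cannot settle whether the numbers pair samples. The labels do not say that they do, so they were not treated as pairs.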

Additional observations from a re-analysis of the deposited data

How the results depend on the processing

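Alternatives numbered 23 for each arm and comparison and 8 for each ratio. Every alternative of both ratios kept its direction and moved by less than the spread between replicates. Apart from fits without 1 library, given below, the arms that passed under alternatives were miR-222-3p in isografts against normal corneas at 0.76 (median of ratios), 1.18 (sum of listed miRNAs), 0.78 (edgeR), 0.80 (DESeq2) and 1.15 (without isograft 12 and allograft 34), and miR-221-5p there at 1.01 (sum), 0.64 (edgeR) and 0.65 (DESeq2). In allografts against normal corneas they were miR-222-3p at 0.73 (median of ratios), 1.33 (sum), 0.74 (edgeR), 0.73 (DESeq2) and 0.74 (without both libraries), miR-221-5p at 1.12 (sum), 0.57 (edgeR) and 0.55 (DESeq2), and miR-221-3p at -0.45 (median of ratios), -1.001 (without miR-184), -0.43 (edgeR) and -0.44 (DESeq2). Between the grafts it was miR-221-3p at -0.47 (median of ratios), -0.48 (edgeR), -0.49 (DESeq2) and -0.94 (without both libraries). The cause was not tested.

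Leaving out 1 library gave ranges, in isografts and in allografts against normal corneas and between the grafts, of -0.20 to 0.51, -0.87 to -0.39 and -1.08 to -0.37 for miR-221-3p, 0.52 to 0.80, 0.31 to 0.55 and -0.39 to -0.11 for miR-221-5p, and 0.53 to 1.15, 0.34 to 0.80 and -0.54 to 0.08 for miR-222-3p. Among these, miR-222-3p in isografts passed without isograft 12 (1.15), and miR-221-3p between the grafts passed without isograft 12 (-1.08) and without allograft 56 (-1.003). The counts of all miRNAs past the threshold, 60, 133 and 97, then ran from 42 to 80, 101 to 164 and 52 to 147, the last 2 values without allograft 34 and without isograft 12. Counts in isografts against normal corneas were 30 with a filter at 50 RPM, which left 152 miRNAs to test. They were 115 by the median of ratios, 120 by the sum and 114 in edgeR, each of 281 tested, and 119 of 279 in DESeq2. In allografts against normal corneas the filter gave 63, again of 152. Between the grafts the counts were 44 of 152 (filter), 168 (median of ratios), 163 (edgeR) and 171 (DESeq2). Counts under the filter cover fewer miRNAs and cannot be compared directly with the others. The higher share of calls was 78.3%, 48.9% and 39.2% with RPM, 57.4%, 53.1% and 47.6% by the median of ratios, 61.3%, 32.7% and 30.8% without miR-184 and 88.3%, 76.2% and 60.7% by the sum. With the title number as a replicate block, the arms kept their fold changes (0.13, 0.70 and 0.87 for miR-221-3p, miR-221-5p and miR-222-3p in isografts) and none passed.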
